A study of Mus musculus with 5 samples.

Results

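The S100 calcium-binding proteins were followed through RNA from mouse peritoneal lavage cells. The set held 8 genes, S100a1, S100a4, S100a6, S100a8, S100a9, S100a10, S100a11 and S100a13, chosen by symbol from the 22815 gene symbols of the deposited table. All 8 had at least 1 FPKM in at least 1 library and so entered the tests. FPKM is the number of sequenced fragments scaled to transcript length and library depth, so levels of different genes can be set side by side.

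The 5 libraries were made by Smart-seq2, a method for reading polyadenylated RNA from little material, and fell into 3 groups. The libraries labelled Irf8KO came from mice described as Irf8-deficient and given pristane (n = 2). The WT pristane libraries came from C57BL/6 (wild type, WT) mice given pristane (n = 2), and the WT PBS library from C57BL/6 mice given phosphate-buffered saline (n = 1). All mice were 8 weeks old. Pristane is a hydrocarbon oil that provokes sterile inflammation in the peritoneum, and Irf8 is a transcription factor of monocyte and dendritic cell development. No Irf8-deficient mice without pristane were analysed here, and the sources used here do not give the kind of Irf8 allele, the dose of pristane or the time after injection. Whether the libraries came from separate mice is not stated, so each p-value reflects the spread among libraries. Within the libraries labelled Irf8KO that spread may be technical. The WT pristane pair differed in sex-linked RNA, as given below, so its spread was not technical alone.

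S100 proteins are small dimeric proteins built on EF-hands, helix-loop-helix motifs that take up calcium. Inside cells they bind and steer partner proteins, among them annexins, cytoskeletal myosin and enzymes. S100a8 and S100a9 form calprotectin, an abundant cytosolic protein of neutrophils that sequesters zinc and manganese and, once released, acts as an alarm signal through Toll-like receptor 4 and the receptor Ager (RAGE). Monocytes and macrophages also express S100a4, S100a6, S100a10 and S100a11.

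Irf8 RNA did not follow the genotype label: the libraries labelled Irf8KO held 120.5 and 59.4 FPKM of it, against 63.3 and 48.7 FPKM in WT pristane and 32.4 FPKM in WT PBS (Irf8KO minus WT pristane, log2 change 0.60 ± 0.41 SE, adjusted p = 0.471, limma). Values per gene do not show whether the RNA was intact, so the libraries are named by their label throughout. The libraries labelled Irf8KO held 23.2 and 25.6 FPKM of the Y-linked Eif2s3y, WT pristane replicate 1 held 12.9 FPKM, and WT pristane replicate 2 and WT PBS held 0, so the WT pristane pair did not match in sex. Summed FPKM ran from 451694 to 582696 per library. From the step size of the low values, depth was about 2296000 to 5085000 assigned fragments per library. The libraries labelled Irf8KO held 9001 and 10403 FPKM of Rn45s, the ribosomal RNA precursor, WT pristane replicate 1 held 14587 FPKM, and the other 2 libraries had it at 0. A listed 0 may therefore be a failed estimate, but no S100 member was listed at 0 in any library.

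The family made up a small part of the RNA of resting cells and a large part after pristane. The 8 members together took 7.92% and 4.76% of the summed FPKM in the libraries labelled Irf8KO, against 3.97% and 4.03% in WT pristane and 0.344% in WT PBS. S100a8 and S100a9 alone accounted for 7.09% and 4.15% in the libraries labelled Irf8KO, 3.23% and 3.04% in WT pristane and 0.0280% in WT PBS. The other 6 members took 0.825% and 0.605% in the libraries labelled Irf8KO, 0.737% and 0.990% in WT pristane and 0.316% in WT PBS. In resting cells these 6 thus held nearly all of the family's RNA, while in each of the 4 pristane libraries S100a8 and S100a9 held most of it.

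**Figure D1:**
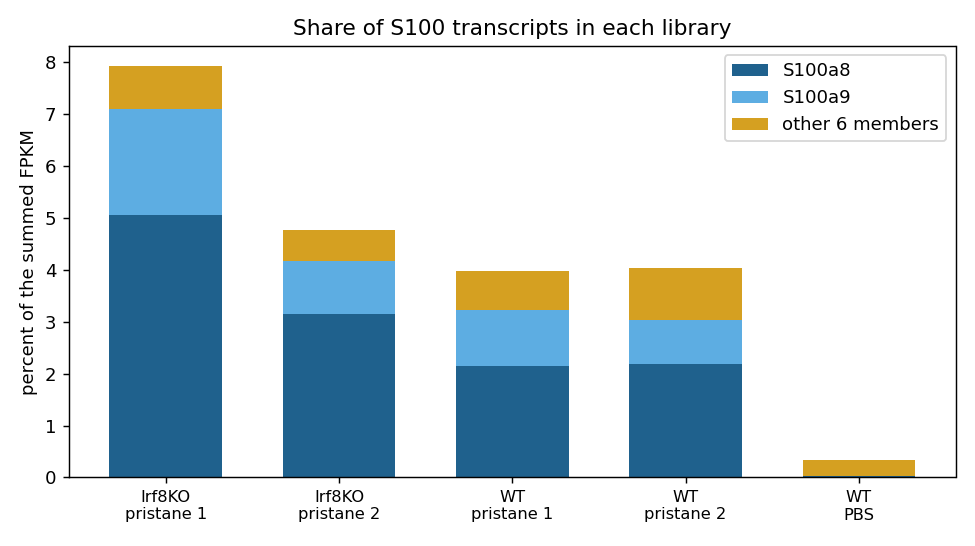
Share of each library's summed FPKM (y axis, percent) taken by S100a8, S100a9 and the other 6 members in the 5 libraries (x axis). The bars reach 7.92% and 4.76% in the libraries labelled Irf8KO, 3.97% and 4.03% in WT pristane and 0.344% in WT PBS, and S100a8 forms the largest segment in every pristane bar.

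The order of the members by level also differed between resting and pristane cells. In WT PBS it ran from S100a10, the highest at 488 FPKM, through S100a4, S100a6, S100a11, S100a8, S100a1 and S100a13 to S100a9, the lowest at 38.7 FPKM. With 1 library no spread stands behind that order, and S100a8 and S100a1 lay within 2.02 FPKM of each other. In both pristane groups S100a8 came first and S100a9 next, and neither overlapped its neighbour in the order. The third place fell to S100a11 in the libraries labelled Irf8KO and to S100a4 in WT pristane. In the libraries labelled Irf8KO the ranges of S100a6 and S100a4, and those of S100a4 and S100a10, overlapped. In WT pristane the ranges overlapped between each pair of neighbours from S100a4 through S100a11 and S100a10 to S100a6, and between S100a1 and S100a13. Across all genes, S100a8 ranked second highest in each of the 4 pristane libraries and was number 547 in WT PBS.

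**Figure D2:**
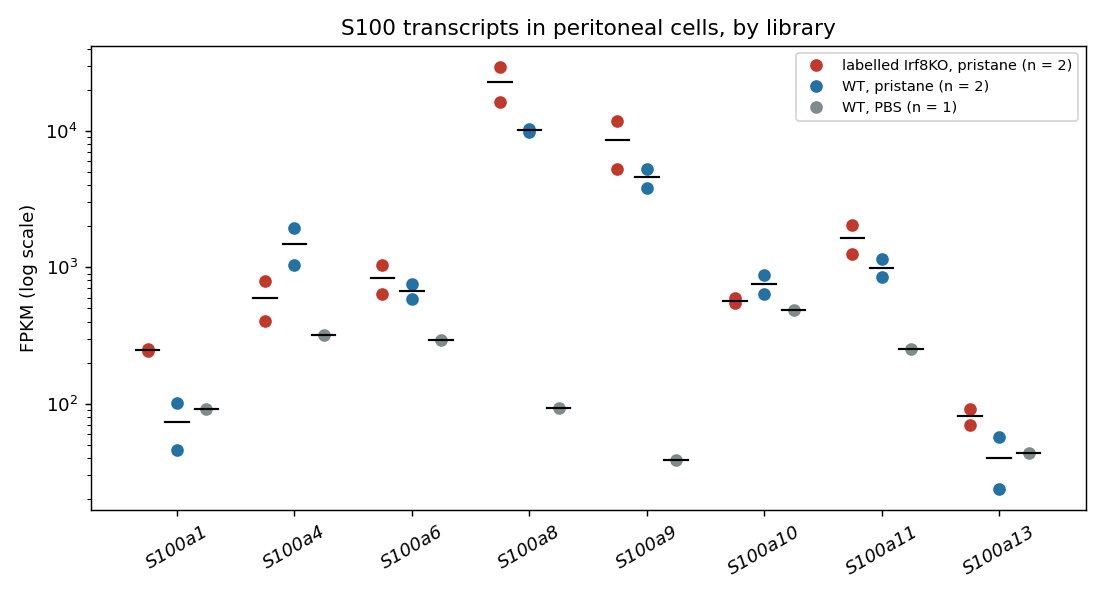
FPKM of the 8 members (log scale, y axis) with 1 point per library and a line at the group mean, for the libraries labelled Irf8KO with pristane, WT pristane and WT PBS. S100a8 lies at 9877 FPKM or more in all 4 pristane libraries, against 92.5 FPKM in WT PBS, and S100a1 lies at 242 to 249.9 FPKM in the libraries labelled Irf8KO against 45.5 to 101 FPKM in WT pristane.

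S100a8, the smaller calprotectin subunit, had 29441 and 16299.9 FPKM in the libraries labelled Irf8KO, against 10376 and 9877 FPKM in WT pristane and 92.5 FPKM in WT PBS. S100a9, the larger subunit, had 11882.5 and 5221 FPKM in the libraries labelled Irf8KO, against 5295 and 3833 FPKM in WT pristane and 38.7 FPKM in WT PBS. For both genes every pristane library was far above WT PBS. Between the pristane groups, both libraries labelled Irf8KO lay above both WT libraries for S100a8, while the S100a9 ranges overlapped. On transcripts of 486 and 512 bases (the shortest coding ones in GENCODE M21), the WT PBS values rested on roughly 103 fragments for S100a8 and 46 for S100a9.

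The genes encoding the calprotectin subunits are neighbours on chromosome 3 in the RefSeq annotation of GRCm38.p6, and their promoters are shown because their RNAs moved together in these libraries. The 250 bases before each start are given from RefSeq (GRCm38.p6), 5′ to 3′ along the gene, S100a8 from chr3:90668821-90669070 on the plus strand and S100a9 from chr3:90695722-90695971 on the minus strand. Capitals mark matches, on either strand, to the TATA box letters TATAAA or to TTNNGNAA, the core that C/EBP factors of myeloid cells bind.
S100a8: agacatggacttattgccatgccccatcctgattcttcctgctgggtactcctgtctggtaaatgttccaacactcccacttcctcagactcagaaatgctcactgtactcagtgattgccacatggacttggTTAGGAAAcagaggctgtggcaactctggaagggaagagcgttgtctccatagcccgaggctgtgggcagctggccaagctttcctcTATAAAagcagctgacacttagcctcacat
S100a9: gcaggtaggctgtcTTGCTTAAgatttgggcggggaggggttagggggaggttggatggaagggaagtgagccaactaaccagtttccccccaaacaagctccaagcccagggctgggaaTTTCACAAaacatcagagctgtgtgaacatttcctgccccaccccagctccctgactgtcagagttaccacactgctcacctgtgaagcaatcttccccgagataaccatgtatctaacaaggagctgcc
S100a8 held TATAAA from position -30 and TTNNGNAA from position -117, counted from the start, and the matches did not overlap. S100a9 held TTNNGNAA from positions -236 and -130 and no TATAAA. Promoters were found for 7 of the 8 members, all but S100a10. TTNNGNAA occurred in 2 of the 7, S100a8 and S100a9, against 36.8% of all 32851 promoter windows of this length, so it is common. TATAAA occurred in S100a4 and S100a8, against 12.4% of all windows.

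The comparison of WT pristane with WT PBS addressed the response of normal mice to the oil. Of the 8 members, S100a8 and S100a9 rose past the threshold of an adjusted p under 0.05 and none fell, beside 5.18% of the 11117 tested genes called higher and 5.46% lower. S100a8 averaged 10126.5 ± 352 FPKM (SD, n = 2) in WT pristane and 92.5 FPKM in WT PBS, a log2 change of 6.76 ± 0.47 SE (adjusted p = 0.0247, limma). S100a9 averaged 4564 ± 1034 FPKM (SD, n = 2) in WT pristane and 38.7 FPKM in WT PBS, a log2 change of 6.83 ± 0.60 SE (adjusted p = 0.0257, limma). In fold terms the 95% intervals ran from 43.6 to 268 for S100a8 and from 35.4 to 363 for S100a9. Changes are on the log2(FPKM + 1) scale. The median change over the 8 members was 1.58, beside -0.07 over all genes tested.

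Irf8KO pristane against WT PBS compared the libraries labelled Irf8KO with resting WT cells, so genotype and treatment differed together. Sex-linked RNA differed too, with 0.0148 and 0.0145 FPKM of Xist in the libraries labelled Irf8KO, against 43.5 FPKM in WT PBS, and its part in the results was not tested. S100a8, S100a9 and S100a11 rose, 3 of 8 members, and none fell, beside 3.81% of all genes tested called higher and 4.72% lower. The log2 changes were 7.87 ± 0.47 SE for S100a8 (adjusted p = 0.0264), 7.63 ± 0.60 for S100a9 (adjusted p = 0.0274) and 2.66 ± 0.43 for S100a11 (adjusted p = 0.0457, all limma). This comparison and the previous one share the WT PBS library, which stood alone in its group and was taken to vary like the pristane replicates. The calls of S100a8, S100a9 and S100a11 against WT PBS were lost when any 1 of the 4 pristane libraries was left out, with adjusted p for S100a8 between 0.0642 and 0.165 in Irf8KO pristane and between 0.0726 and 0.116 in WT pristane. Its log2 change then stayed between 7.45 and 8.30 in Irf8KO pristane and between 6.72 and 6.79 in WT pristane. S100a11 also missed the threshold with a pseudocount of 0.1 (adjusted p = 0.0586), with no filter on low values (0.0682) and with no variance trend (0.0511). A pseudocount is the value added before taking logs.

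S100a11, which binds annexin A1 (Anxa1) and takes part in membrane repair, had 2052 and 1241 FPKM in the libraries labelled Irf8KO, against 1148 and 843 FPKM in WT pristane and 251 FPKM in WT PBS. Every pristane library was above WT PBS, and both libraries labelled Irf8KO were above both WT pristane libraries. In WT pristane against WT PBS its log2 change was 1.97 ± 0.43 SE (adjusted p = 0.0646, limma). That change passed in 1 of 11 alternatives, when genes with a mean of at least 5 FPKM alone were tested (adjusted p = 0.0316, limma). The S100a11 transcript shares 47.0% of its 31-base words with the pseudogene Gm12854 in GENCODE M21, so its fragments may have been divided in the authors' counting.

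S100a4, which binds the heavy chain of non-muscle myosin (Myh9) and is expressed by migrating leukocytes and fibroblasts, had 789.5 and 404 FPKM in the libraries labelled Irf8KO, against 1045 and 1929 FPKM in WT pristane and 320.4 FPKM in WT PBS. WT pristane stood highest and did not overlap with either of the other groups. Against WT PBS the log2 change was 0.82 ± 0.60 SE in Irf8KO pristane (adjusted p = 0.399) and 2.14 ± 0.60 in WT pristane (adjusted p = 0.0982, limma). S100a4 shares 49.2% of its 31-base words with Gm42674, a coding gene of the same annotation.

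S100a6, or calcyclin, which binds the ubiquitin ligase adaptor Cacybp, had 1033 and 635 FPKM in the libraries labelled Irf8KO, against 586 and 756 FPKM in WT pristane and 293 FPKM in WT PBS. The pristane groups overlapped and both lay above WT PBS. Its log2 change was 1.47 ± 0.40 SE in Irf8KO pristane (adjusted p = 0.0947) and 1.18 ± 0.40 in WT pristane (adjusted p = 0.132), each against WT PBS by limma.

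S100a10, also called p11, has lost calcium binding and pairs with annexin A2 (Anxa2) in a complex that holds plasminogen activation at the cell surface. It had 590.5 and 542 FPKM in the libraries labelled Irf8KO, against 635 and 874 FPKM in WT pristane and 488 FPKM in WT PBS. WT pristane was highest, WT PBS was lowest, and no groups overlapped. Against WT PBS its log2 change was 0.21 ± 0.29 SE in Irf8KO pristane (adjusted p = 0.631), or -0.07 after quantile normalization, and 0.61 ± 0.29 in WT pristane (adjusted p = 0.224, limma).

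S100a1, best known from heart muscle, where it binds the ryanodine receptor, had 249.9 and 242 FPKM in the libraries labelled Irf8KO, against 101 and 45.5 FPKM in WT pristane and 90.5 FPKM in WT PBS. S100a13, which assists the release of the leaderless proteins Fgf1 and Il1a, had 91.7 and 70.0 FPKM in the libraries labelled Irf8KO, against 56.5 and 23.7 FPKM in WT pristane and 43.1 FPKM in WT PBS. For both genes the libraries labelled Irf8KO were highest, and WT PBS lay between the WT pristane replicates. S100a1 and S100a13 lie next to each other on opposite strands and their annotated spans overlap, and Smart-seq2 does not mark strand, so fragments from the overlap cannot be assigned to either. The lowest S100a13 value, in WT pristane replicate 2, rested on roughly 49 fragments for a transcript of 715 bases. Without that replicate the log2 change of WT pristane against WT PBS was 0.16 for S100a1, against -0.41 with it, and 0.38 for S100a13, against -0.23 with it.

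**Figure D3:**
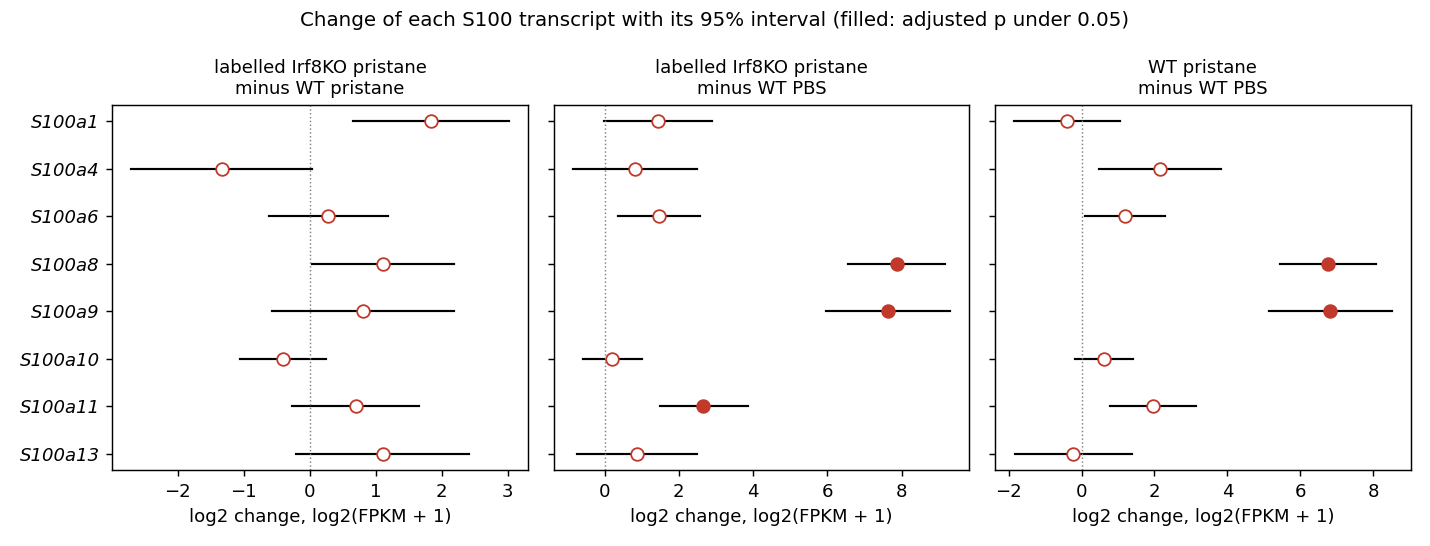
Log2 change of each member on the log2(FPKM + 1) scale (x axis) with its 95% interval from limma, in the 3 comparisons. Filled points have an adjusted p under 0.05, which holds for S100a8, S100a9 and S100a11 in Irf8KO pristane against WT PBS, for S100a8 and S100a9 in WT pristane against WT PBS, and for no member between the pristane groups.

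Irf8KO pristane against WT pristane asked which members differed with the genotype label after the oil. By limma 0 of 8 members passed the threshold, beside 0.027% of all genes tested, and 2 of 8 had an unadjusted p under 0.05, beside 20.6% of all genes. The S100a1 log2 change was 1.84 ± 0.43 SE (95% interval 0.65 to 3.02, adjusted p = 0.153), with means of 246 ± 5.73 FPKM in the libraries labelled Irf8KO and 73.5 ± 39.5 FPKM in WT pristane (SD, n = 2 each). The S100a8 log2 change was 1.11 ± 0.38 SE (95% interval 0.04 to 2.18, adjusted p = 0.232), with means of 22870.4 ± 9292 FPKM in the libraries labelled Irf8KO and 10126.5 ± 352 FPKM in WT pristane (SD, n = 2 each). After quantile normalization the S100a8 difference was 0, since the gene held the same rank in each of the 4 libraries.

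The remaining members split in direction between the pristane groups. S100a4 had a log2 change of -1.33 ± 0.49 SE (95% interval -2.70 to 0.04, adjusted p = 0.250, limma), and S100a10 one of -0.40 ± 0.23 (adjusted p = 0.416). S100a13 had 1.11 ± 0.47 (adjusted p = 0.297), S100a9 0.81 ± 0.49 (adjusted p = 0.431), S100a11 0.70 ± 0.35 (adjusted p = 0.347) and S100a6 0.28 ± 0.32 (adjusted p = 0.656). The libraries labelled Irf8KO did not overlap with WT pristane for 4 members on the higher side (S100a1, S100a8, S100a11 and S100a13), beside 26.1% of all genes tested. They did not overlap for 2 members on the lower side (S100a4 and S100a10), beside 27.1% of all genes. The median change of the 8 members was 0.75, beside 0.00 over all genes. Without Irf8KO replicate 1 the log2 change was 0.69 for S100a8 and 0.21 for S100a9, and without Irf8KO replicate 2 it was 1.54 and 1.40. S100a6 turned to -0.07 without Irf8KO replicate 1, and was 0.63 without Irf8KO replicate 2, 0.10 without WT replicate 1 and 0.47 without WT replicate 2. Without WT replicate 2 the change was 0.50 for S100a13 and -0.17 for S100a10, and without WT replicate 1 it was 1.72 and -0.63. S100a11 gave 0.33 without Irf8KO replicate 1 and 1.06 without Irf8KO replicate 2, and S100a4 gave -0.85 without Irf8KO replicate 2.

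Ratios of members within a library do not depend on how the libraries were scaled to each other. The ratio of S100a8 to S100a9 was 2.48 and 3.12 in the libraries labelled Irf8KO, 1.96 and 2.58 in WT pristane and 2.39 in WT PBS. The subunit ratio thus overlapped between the groups, although the mean level in WT pristane was 109-fold that in WT PBS for S100a8 and 118-fold for S100a9. The ratio of S100a6 to S100a4, which lie close together on chromosome 3 with S100a5 between them, was 1.31 and 1.57 in the libraries labelled Irf8KO, 0.561 and 0.392 in WT pristane and 0.913 in WT PBS. S100a6 thus exceeded S100a4 in both libraries labelled Irf8KO and in none of the WT libraries.

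S100a11 and S100a10, also neighbours on chromosome 3, had a ratio of 3.47 and 2.29 in the libraries labelled Irf8KO, 1.81 and 0.965 in WT pristane and 0.514 in WT PBS. S100a1 to S100a13 stood at 2.72 and 3.45 in the libraries labelled Irf8KO, 1.79 and 1.92 in WT pristane and 2.10 in WT PBS. Both ratios were higher in each library labelled Irf8KO than in each WT library. S100a6 also exceeded S100a10 in both libraries labelled Irf8KO and lay below it in both WT pristane libraries. Of all 28 pairs of members, this pair and S100a6 with S100a4 were the 2 whose order was reversed between the pristane groups. Ratios did not overlap between these groups for 19 of the 28, so a lack of overlap was usual. With 2 libraries against 2, an exact 2-sided permutation test cannot give a p below 0.333, so these ratios are descriptions.

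**Figure D4:**
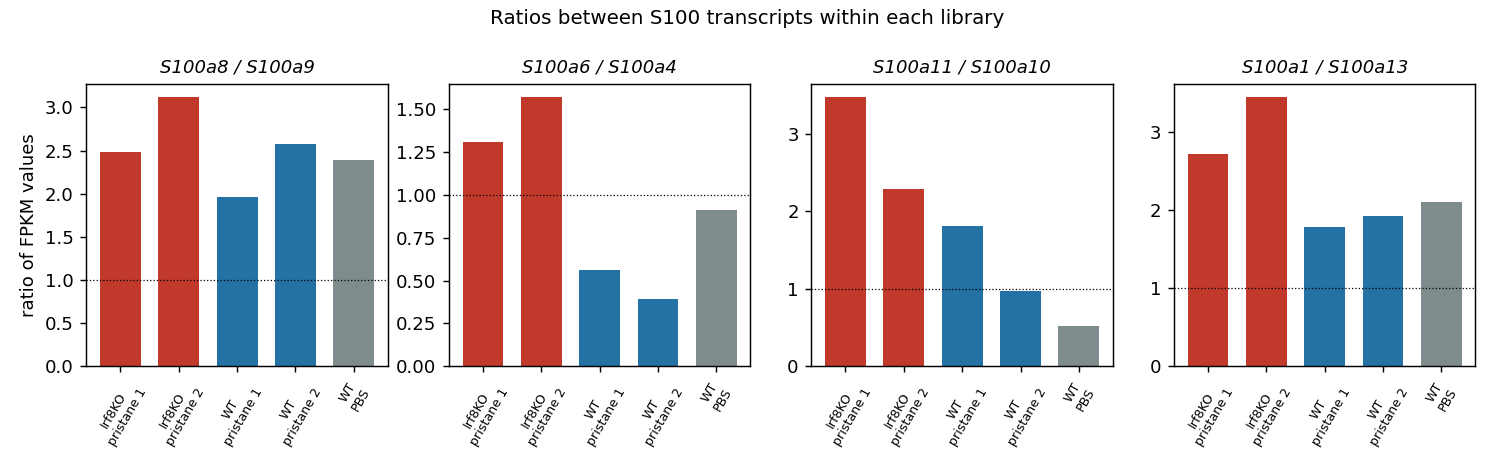
Ratio of FPKM values (y axis) between members within each library (x axis), with a dotted line at 1. S100a8 over S100a9 stays between 1.96 and 3.12 in all 5 libraries, while S100a6 over S100a4 lies above 1 in the libraries labelled Irf8KO and below 1 in the WT libraries.

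By likeness of pattern, each gene's log2(FPKM + 1) values were centred on their mean over the 5 libraries and compared by root mean square difference. Of the 4773 genes with a mean of at least 3 on that scale, predicted genes, clone names and antigen receptor segments were passed over in the order. The genes nearest to S100a8 were S100a9 (0.22), Lcn2, an iron-withholding protein of neutrophil granules (0.34), and Asprv1, an aspartic protease gene (0.43). Among the other members, S100a11 came next at 2.01, number 132 in order. The genes nearest to S100a4 were Lgals1, which encodes galectin-1 (0.23), Nampt, an enzyme of NAD synthesis (0.24), and Tlr13, a receptor for bacterial ribosomal RNA (0.25). Lgals1 had 215 and 145 FPKM in the libraries labelled Irf8KO, against 369 and 510.5 FPKM in WT pristane and 124 FPKM in WT PBS. The members nearest to S100a4 were S100a10 at 0.67 and S100a6 at 0.75, numbers 514 and 871 in order. These distances describe 5 libraries and carry no test.

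Markers of the cell types in the lavage also differed between the libraries. The 13 listed neutrophil markers, S100a8 and S100a9 left out, summed to 6163 and 2854 FPKM in the libraries labelled Irf8KO, against 1431 and 1646 FPKM in WT pristane and 33.0 FPKM in WT PBS. Camp, Elane, Stfa2l1 and Il1r2 were listed at 0 in WT PBS. Retnlg, a resistin-like secreted protein of neutrophils, made up much of the sums, with 3401 and 1325 FPKM in the libraries labelled Irf8KO, against 324 and 370.3 FPKM in WT pristane and 9.997 FPKM in WT PBS. The markers differed in direction. The pristane groups did not overlap for 7 markers on the higher side, beside 26.1% of all genes tested. They did not overlap for 2, Stfa2l1 (log2 change -0.54) and Il1r2 (-0.95), on the lower side, beside 27.1% of all genes. Csf3r (0.07), Asprv1 (0.21) and Trem1 (0.21) lay close to no change. Between the pristane groups 0 of 13 passed by limma, with 4 at an unadjusted p under 0.05, beside 20.6% of all genes. In bulk RNA, fewer cells of a type and less RNA per cell cannot be told apart, and the part of neutrophil number in the S100a8 and S100a9 values was not tested.

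The 11 inflammatory monocyte markers summed to 5643 and 4887 FPKM in the libraries labelled Irf8KO, against 4020 and 7715 FPKM in WT pristane and 1749 FPKM in WT PBS. Most of the WT PBS sum came from Fn1 (868 FPKM) and Plac8 (706 FPKM). The sums hold Fn1 and Hp, which were the 2 markers with a positive change between the pristane groups, and the other 9 had negative ones. Chil3 made up much of the sum in WT pristane replicate 2, with 3999.8 FPKM there against 88.9 FPKM in WT pristane replicate 1. It had 120 and 69.6 FPKM in the libraries labelled Irf8KO. Ly6c2, the defining surface antigen, had 42.9 and 19.8 FPKM in the libraries labelled Irf8KO, against 145 and 296 FPKM in WT pristane and 2.51 FPKM in WT PBS. No marker of the list was at 0 in any library. By limma 0 of 11 passed between the pristane groups, with 8 at an unadjusted p under 0.05, beside 20.6% of all genes. The 9 large peritoneal macrophage markers summed to 1266 and 1983 FPKM in the libraries labelled Irf8KO, against 115 and 147 FPKM in WT pristane and 1981 FPKM in WT PBS, none at 0. Between the pristane groups 8 of the 9 had positive changes and Timd4 a negative one. Timd4 had 0.0957 and 0.552 FPKM in the libraries labelled Irf8KO, against 0.676 and 0.838 FPKM in WT pristane and 26.9 in WT PBS. S100a4 was thus highest in the libraries where Ly6c2 was highest and the resident macrophage sum lowest. The order of the monocyte sum differed from that of S100a4, with WT pristane replicate 1 below both libraries labelled Irf8KO. In the libraries labelled Irf8KO, Fn1 (2335 and 2859 FPKM) and Hp (2887 and 1785 FPKM) made up most of that sum. The part of monocytes and resident macrophages in the S100a4 and S100a10 values was not tested.

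**Figure D5:**
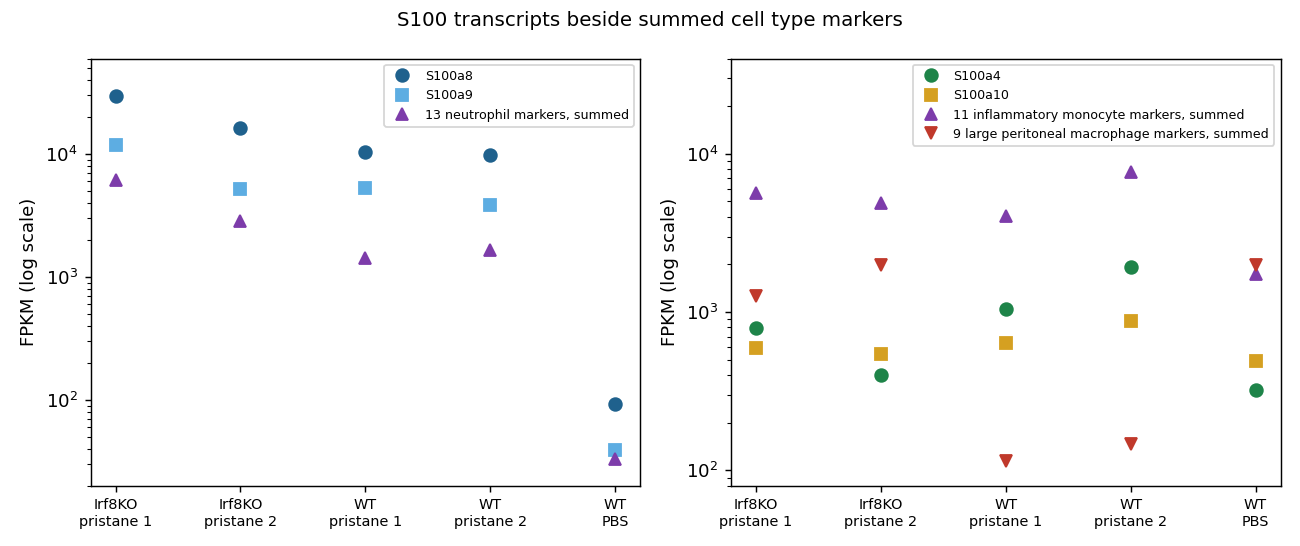
FPKM (log scale, y axis) of S100a8 and S100a9 beside the sum of 13 neutrophil markers (left), and of S100a4 and S100a10 beside the sums of 11 inflammatory monocyte and 9 large peritoneal macrophage markers (right), in each library (x axis). The neutrophil sum is highest, at 6163 FPKM, in Irf8KO pristane replicate 1, where S100a8 and S100a9 are also highest, and stands at 33.0 FPKM in WT PBS.

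Other cell types were covered by 5 further lists. The 8 B cell markers summed to 236 and 120 FPKM in the libraries labelled Irf8KO, against 54.1 and 15.7 FPKM in WT pristane and 3213 FPKM in WT PBS, and the 6 mast cell markers to between 2.26 and 4.38 FPKM in the 4 pristane libraries and 317 FPKM in WT PBS. The 8 T and natural killer cell markers summed to 57.8 and 42.2 FPKM in the libraries labelled Irf8KO, against 137 and 107 FPKM in WT pristane and 98.0 FPKM in WT PBS. The 6 eosinophil markers stayed between 4.84 and 20.5 FPKM, with Epx at 0 throughout. The 10 mesothelial and fibroblast markers, of interest because fibroblasts express S100a4, summed to 24.6 and 74.5 FPKM in the libraries labelled Irf8KO, against 50.3 and 42.2 FPKM in WT pristane, and all 10 were listed at 0 in WT PBS.

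Outside the 8 members, a list of 8 other S100 genes was almost silent. S100a3, S100a14, S100b and S100z were listed at 0 in all 5 libraries, S100a7a reached 0.513 FPKM in 1 library, and 3 genes entered the tests. S100a5, which lies between S100a4 and S100a6, had 3.22 and 6.60 FPKM in the libraries labelled Irf8KO, was at 0 in both WT pristane libraries and had 10.6 FPKM in WT PBS. All 4 pristane libraries had S100g, a calcium carrier of gut epithelium, at 0, against 2.59 FPKM in WT PBS. S100a16 stayed between 0 and 2.43 FPKM. S100g entered the tests through its WT PBS value alone, and no test is given for it or for S100a16. S100a5 fell past the threshold in WT pristane against WT PBS (log2 change -3.54, limma), beside 5.46% of all genes tested called lower. Its values of 0 in WT pristane may be failed estimates. In Irf8KO pristane against WT PBS its log2 change was -1.04, which did not pass.

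Of 9 receptors and adaptors for extracellular S100 proteins, 8 entered the tests, and 1 rose in each comparison with WT PBS. Of all genes tested, 3.81% were called higher in Irf8KO pristane and 5.18% in WT pristane. The 1 called here was Myd88, the adaptor of Toll-like receptors, with 69.7 and 56.7 FPKM in the libraries labelled Irf8KO, against 92.2 and 89.8 FPKM in WT pristane and 25.1 FPKM in WT PBS (adjusted p = 0.0477 and 0.0301 against WT PBS, limma). Cd14, the co-receptor of Tlr4, was the highest of the list, with 1721 and 1256 FPKM in the libraries labelled Irf8KO, against 2159.6 and 1037 FPKM in WT pristane and 409 FPKM in WT PBS. Bsg, a membrane glycoprotein that binds S100a9, had 351 and 489 FPKM in the libraries labelled Irf8KO, against 212 and 167 FPKM in WT pristane and 124 FPKM in WT PBS. Cd36, the scavenger receptor, had 24.1 and 14.3 FPKM in the libraries labelled Irf8KO, against 181 and 127 FPKM in WT pristane and 65.5 FPKM in WT PBS, a log2 change of -2.97 between the pristane groups (adjusted p = 0.0694). Ager, the gene of RAGE, did not reach 0.2 FPKM in any library. Between the pristane groups 0 of 8 passed by limma, with 3 at an unadjusted p under 0.05, beside 20.6% of all genes.

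Of 13 partner genes, 10 entered the tests. Against WT PBS 2 rose in Irf8KO pristane, beside 3.81% of all genes tested, and 3 in WT pristane, beside 5.18%. Anxa2, the partner of S100a10, had 2066 and 1713 FPKM in the libraries labelled Irf8KO, against 2637 and 3405 FPKM in WT pristane and 181 FPKM in WT PBS, a log2 change of 3.37 in Irf8KO pristane (adjusted p = 0.0297) and 4.04 in WT pristane (adjusted p = 0.0247). The ratio of Anxa2 to S100a10 was 3.50 and 3.16 in the libraries labelled Irf8KO, 4.15 and 3.90 in WT pristane and 0.371 in WT PBS. S100a10 RNA thus exceeded Anxa2 RNA in resting cells, with the reverse order in all 4 pristane libraries. Anxa1, the partner of S100a11, had 654 and 499.8 FPKM in the libraries labelled Irf8KO, against 519 and 709 FPKM in WT pristane and 84.2 FPKM in WT PBS, and rose in both groups (adjusted p = 0.0342 and 0.0296). Anxa5, a phosphatidylserine-binding annexin, had 179.7 and 87.6 FPKM in the libraries labelled Irf8KO, against 558 and 554 FPKM in WT pristane and 69.9 FPKM in WT PBS, and rose in WT pristane (adjusted p = 0.0427). Between the pristane groups 0 of 10 passed by limma, with 1 at an unadjusted p under 0.05, beside 20.6% of all genes.

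Of 5 other metal-withholding genes, all tested, 2 rose in Irf8KO pristane against WT PBS, beside 3.81% of all genes tested. In WT pristane 1 rose against WT PBS, beside 5.18%. Lcn2 had 2706 and 1414 FPKM in the libraries labelled Irf8KO, against 552 and 891 FPKM in WT pristane and 9.03 FPKM in WT PBS (adjusted p = 0.0274 and 0.0257 against WT PBS, limma). Mt2, a zinc-binding metallothionein, had 137 and 74.9 FPKM in the libraries labelled Irf8KO, against 52.8 and 59.0 FPKM in WT pristane and 14.1 FPKM in WT PBS, and rose in Irf8KO pristane (adjusted p = 0.0430). Mt1, the other metallothionein, had 584 and 409 FPKM in the libraries labelled Irf8KO, against 204 and 252 FPKM in WT pristane and 206 FPKM in WT PBS. Slc11a1, the phagosomal metal transporter, had 228 and 172 FPKM in the libraries labelled Irf8KO, against 326 and 189 FPKM in WT pristane and 75.0 FPKM in WT PBS. Between the pristane groups 0 of 5 passed by limma, with 3 at an unadjusted p under 0.05, beside 20.6% of all genes.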

How the data were processed

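The deposited table, which the authors' file name calls a count table, holds FPKM values: they are not whole numbers, and the submitters' processing notes name Cuffnorm beside BWA, TopHat2 2.0.10 and Cufflinks 2.2.1, with no step given for any of them. The sources used here do not give the genome build, the annotation or any scaling between libraries. Tests used limma 3.58.1 (R 4.3.3) on log2(FPKM + 1), with a variance trend, 3 group means and all 5 libraries, over 11117 genes that reached 1 FPKM in 1 library or more. Residual and prior degrees of freedom were 2 and 1.99. P-values were 2-sided and adjusted by Benjamini-Hochberg over all genes tested. The fit was tested on simulated data. Fragments per library were estimated from the steps between low values of genes with a single GENCODE M21 transcript, and fragments per member from transcript length, so both are approximate and cover counting error only. Named genes were the members, listed genes past the threshold, and the 3 highest of each list; marker genes named singly, and Irf8, Eif2s3y and Rn45s, were chosen after their values were seen. The members and lists were chosen with earlier results of these data known. Of the marker symbols sought, Ly6g, Chi3l3, Adgre1 and Siglecf had no row used here. Alternatives covered the pseudocount, the filter, scaling, the variance trend, the libraries fitted, single libraries left out and a replicate block.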

Additional observations from a re-analysis of the deposited data

How the results depend on the processing

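S100a8 and S100a9 kept their direction against WT PBS under all 11 alternatives in each comparison. Between the pristane groups the 3 genes called became 0 with a pseudocount of 0.1 and with no filter on low values, 242 with a mean of at least 5 FPKM, 40 with no variance trend and 431 with the 4 pristane libraries alone. Fitted on the 2 groups compared, 0 genes and 0 members were called in either comparison with WT PBS, against 949 genes and 3 members for Irf8KO pristane, where no variance trend gave 623 genes, and 1183 genes and 2 members for WT pristane. Leaving out any 1 pristane library gave 0 to 0 genes and 0 to 0 members in each of the 3 comparisons, where between 1005 and 4013 genes had an unadjusted p under 0.05. The causes were not tested. Median ratio scaling moved the median change of all genes against WT PBS to -0.202 in Irf8KO pristane, with -0.050 before, and to -0.196 in WT pristane, with -0.071 before. Calls in Irf8KO pristane against WT PBS were then 386 higher and 765 lower, against 424 higher and 525 lower. The balance also moved with the filter: a mean of at least 5 FPKM gave 639 higher and 294 lower in Irf8KO pristane and 808 higher and 368 lower in WT pristane, and no filter gave 292 higher and 868 lower in Irf8KO pristane and 372 higher and 901 lower in WT pristane, where 576 higher and 607 lower were called otherwise. The S100a8 difference between the pristane groups was 0 after quantile normalization. Signs turned, with no call lost, for S100a10 in Irf8KO pristane against WT PBS (-0.07 after quantile normalization), S100a6 between the pristane groups (-0.07 to 0.63 with 1 library left out), and S100a1 and S100a13 in WT pristane against WT PBS (-0.98 to 0.16 and -0.84 to 0.38 with 1 library left out). With the replicate block 799 genes and 2 members, S100a1 and S100a8, were called between the pristane groups, but deviations of same-numbered libraries correlated at 0.045 and the labels do not say that the numbers mark a pairing. The single WT PBS library and depths under 100 fragments for S100a9 at rest limit the precision.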
